A study of Xenopus laevis with 74 samples.

Results

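The genes described here are the FGF ligands, the FGF receptors and the feedback inhibitors that FGF signalling switches on, in *Xenopus laevis* blastula explants. Members were chosen by symbol alone: every row whose name was fgf or fgfr followed by a digit, every spry and spred row, and dusp6, with the FGFR oncogene partner genes, which share only the prefix, left out. This gave 65 of 45656 rows of the count table and 67 of 51061 rows of the TPM table. *X. laevis* is allotetraploid, so most genes have an L and an S copy (homeologs) with a row each, and with the copies joined there were 33 genes: 21 ligands, 4 receptors and 8 feedback genes. The ligand class was set by symbol, so all counts of ligands also hold fgf11, fgf12, fgf13 and fgf14. Those are intracellular FGF-like genes, not secreted ligands. A row was tested when at least 1 library held 15 counts or more, which 49 member rows passed (24 ligand, 8 receptor and 17 feedback rows, from 27 genes), and 16 member rows were not tested.

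The explants are animal caps, the roof of the blastula, dissected as pools before gastrulation and cultured alone. Caps were made neural with 100 ng/uL Noggin (a BMP antagonist), ventral mesoderm with 20 ng/uL BMP4/7 or endoderm with 160 ng/uL Activin (doses as the labels give them), or were left untreated, which gives the epidermal lineage. The study's methods state the Noggin and Activin doses in ng/mL, so the unit of the doses is uncertain. By those methods Noggin was given in a medium low in calcium and magnesium, and Activin and BMP4/7 in Marc's Modified Ringer's, all with albumin. Noggin and its medium thus cannot be told apart in any comparison of neural caps with another lineage. RNA was sequenced at 6 stages, from stage 9 (late blastula) through 10, 10.5 and 11 to stages 12 and 13 (neural plate), with 3 libraries per group and 5 for ventral mesoderm at stage 11, 74 in all. Treatment began at stage 9, so that stage is a baseline. The lineage names stand for a treatment of 1 explant type, not for tissues taken from embryos.

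FGF ligands bind receptor tyrosine kinases at the cell surface, together with heparan sulfate, and the receptors act mainly through the Ras-ERK kinase cascade. Sprouty (spry) and Spred proteins damp that cascade between receptor and Raf, and dusp6 removes the phosphates that activate ERK. These inhibitors are transcribed in response to the pathway, and their mRNAs are widely read as its targets. In frog gastrulae FGF signalling is known for keeping mesoderm genes such as tbxt on, for gastrulation movements and for neural and posterior development.

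Library totals ran from 11938338 to 23215739 counts. The ventral mesoderm libraries were run on a HiSeq and the others on a NextSeq instrument, so sequencer and lineage cannot be told apart in any comparison of ventral mesoderm. In bulk RNA, fewer cells of a type and less RNA per cell cannot be told apart either. The labels call replicates separate samples without saying from which embryos, so p-values measure the spread between these samples. At stage 13 the endoderm markers sox17a, sox17b, a2m and foxa2 summed to 3496 to 4443 TPM in endoderm caps, against 19.1 to 39.8 TPM in epidermal caps, and the neural markers sox2, sox3, otx2 and zic1 to 1007 to 2639 TPM in neural caps, against 91.7 to 354 TPM in epidermal caps. The ventral mesoderm markers tbxt, evx1, msgn1 and ventx1 summed to 812 to 2356 TPM in ventral mesoderm caps, against 115 to 257 TPM in epidermal caps, but those caps also held the epidermal markers at 1412 to 3026 TPM, against 2703 to 6825 TPM in epidermal caps. At that stage endoderm caps also held the ventral mesoderm markers, at 695 to 1011 TPM. Their organizer markers gsc, chrd and nog summed to 373 to 1970 TPM, against at most 1.5 TPM in epidermal caps. Neural caps held the endoderm markers at 106 to 468 TPM, so no treated group was free of markers listed for another. Most of that neural sum was a2m and foxa2. There sox17a and sox17b averaged 8.09 and 17.3 TPM, against 14.2 and 54.9 TPM in neural caps at stage 9. Ventral mesoderm replicate 1 was the lowest in ventral mesoderm markers at all 6 stages, and neural replicate 2 the highest in muscle markers at stages 10 to 13. At all 6 stages epidermal replicate 1 held the most epidermal marker RNA. Values that touch a result are given beside it.

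Most members were scarce. With L and S summed, 15 of 33 genes reached a group mean of 10 TPM (a transcript level scaled for transcript length and library size) in at least 1 of 24 groups: the ligands fgf3, fgf8, fgf14 and fgf20, all 4 receptors, and the feedback genes spry1, spry2, spry4, spred1, spred2, spred3 and dusp6. A further 11 genes peaked between 1 and 10 TPM, and 7 stayed under 1 TPM in every group. Receptors were the most abundant class at stage 13 in endoderm caps, where their TPM summed to 923 on average.

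Activin-treated caps switched on fgf8, fgf3 and fgf20 at the start of gastrulation. fgf8, a secreted ligand with roles in frog mesoderm and neural development, stood at 187, 214 and 204 TPM in endoderm caps at stage 10, against 5.49, 5.91 and 3.99 TPM in epidermal caps. The groups lay far apart, as they did at stage 10.5, with 124, 154 and 159 TPM in endoderm caps, against 5.61, 9.78 and 8.25 TPM in epidermal caps. The count fits gave log2 fold changes of 5.85 ± 0.21 (SE, n = 3 each, adjusted p = 1.74e-06) for fgf8.S and 4.78 ± 0.25 (adjusted p = 1.79e-05) for fgf8.L at stage 10. Within endoderm caps fgf8 averaged 4.36, 202, 146, 49.1, 27.6 and 12.8 TPM over the 6 stages, a peak at stage 10 and a decline after it. The later stage differed from the earlier one for both copies at stage 10 against 9 (5.84 ± 0.43 for fgf8.L and 5.58 ± 0.45 for fgf8.S) and for fgf8.S at stage 11 against 10.5 (-1.66 ± 0.18, adjusted p = 0.00762).

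fgf3, a ligand of the Fgf7 and Fgf10 group, peaked at stage 10.5. It held 9.94, 11.2 and 13.8 TPM in endoderm caps at stage 10, against 0.21, 0.25 and 0.20 TPM in epidermal caps. At stage 10.5 endoderm caps held 55.1, 58.5 and 50.2 TPM, against 0.67, 0.28 and 0.53 TPM in epidermal caps. No endoderm library came near an epidermal one at either stage, and fgf3.S had the largest fold change of any abundant member against epidermal caps, 6.99 ± 0.33 on the log2 scale (adjusted p = 8.61e-06) at stage 10.5. By stage 12 the endoderm libraries were down to 0.63, 0.76 and 1.1 TPM, among the epidermal values of 0.30, 1.47 and 1.05 TPM, and fgf3.S fell by 3.68 on the log2 scale between stages 11 and 12 (SE 0.27, adjusted p = 0.00139). The fgf3.L copy is in the TPM table but not in the count table, so its counts were not tested.

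fgf20, a ligand of the Fgf9 group that acts in frog gastrula mesoderm, followed the same window. Endoderm caps held 19.1, 10.5 and 21.7 TPM at stage 10, against 0.15, 0.42 and 0.39 TPM in epidermal caps, and 40.4, 45.3 and 47.8 TPM at stage 10.5, against 0.28, 1.26 and 1.13 TPM in epidermal caps. At stage 10.5 the log2 fold change was 5.92 ± 0.49 (adjusted p = 2.00e-04) for fgf20.S and 5.0 ± 0.47 (adjusted p = 4.79e-04) for fgf20.L. At stage 11 the endoderm libraries spread widely, at 6.66, 3.24 and 28.8 TPM, and the calls there (3.79 ± 0.85 for fgf20.L, 3.63 ± 0.74 for fgf20.S) did not hold without epidermal replicate 3, nor fgf20.L without epidermal replicate 1. Calls for fgf20.L also stood at stages 12 and 13, where all epidermal libraries held 0 to 4 counts.

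**Figure D1:**
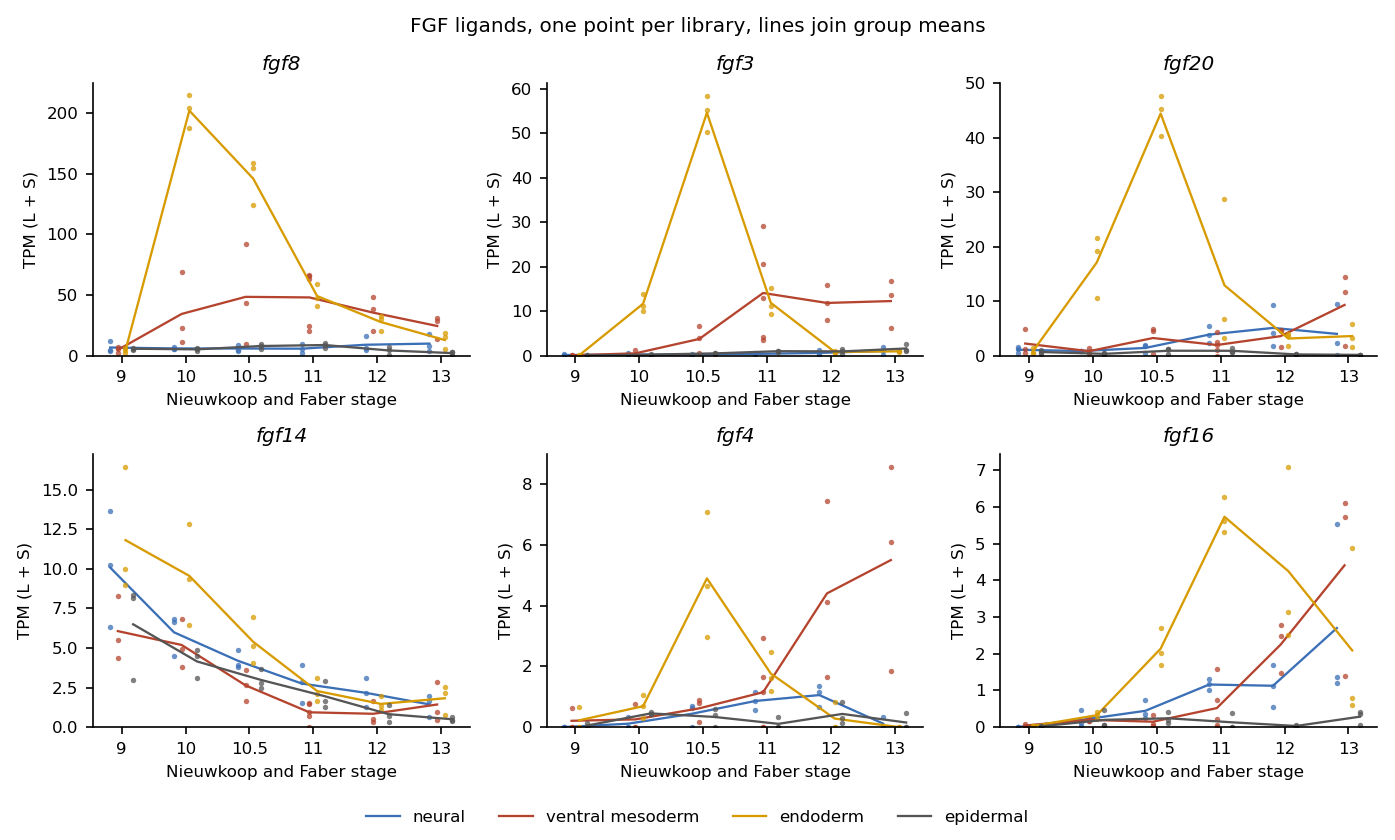
Level of 6 FGF ligands by stage in TPM (L and S summed). Each point is 1 library, lines join group means, and the colours are neural, ventral mesoderm, endoderm and epidermal caps; fgf4 and fgf16 were picked after their values were seen. fgf8, fgf3 and fgf20 peak in endoderm caps at stages 10 to 10.5, while fgf3 stays up in ventral mesoderm caps at stages 11 to 13.

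Ventral mesoderm caps held RNA of the same 3 ligands, less evenly, and that of fgf3 and fgf20 later than endoderm caps. At stage 10 fgf3 held 0.03 to 1.24 TPM and fgf20 0.41 to 1.45 TPM in ventral mesoderm caps. fgf8 stood at 11.4, 68.8 and 22.8 TPM at stage 10 in ventral mesoderm caps, at 9.90, 92.0 and 43.2 TPM at stage 10.5 and at 13.8, 30.9 and 28.4 TPM at stage 13. Every one of these was above the epidermal libraries of its stage, but replicate 1 was the lowest each time, and no fgf8 row passed the test before stage 13. Its summed ventral mesoderm markers were likewise the lowest, 47.5 TPM at stage 10, where the next library held 200.5 TPM, and 156 TPM at stage 10.5, where the next held 849.5 TPM; the part of this in the fgf8 spread was not tested. fgf3 held 7.92, 15.8 and 11.8 TPM in ventral mesoderm caps at stage 12, against 0.30, 1.47 and 1.05 TPM in epidermal caps, with a log2 fold change of 3.77 ± 0.52 for fgf3.S (adjusted p = 0.0192). fgf20.L gave the largest fold change among abundant members at stage 13, 6.32 ± 1.02 (adjusted p = 0.0320), on 36, 169 and 273 counts in ventral mesoderm caps, against 4, 1 and 0 counts in epidermal caps.

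In neural caps no fgf3 or fgf8 row was called against epidermal caps at any stage. fgf8 stood at 3.73, 18.1 and 7.75 TPM in neural caps at stage 13, against 0.41, 2.93 and 2.76 TPM in epidermal caps. The neural libraries were all above the epidermal ones, with replicate 2 well above the other neural libraries. fgf20.L had 14, 107 and 55 counts in neural caps at stage 12, against 3, 0 and 3 counts in epidermal caps, and was called (adjusted p = 0.00880), with no fold given because all epidermal libraries were at 3 counts or fewer. fgf14, an intracellular FGF-like protein that is not secreted, was the abundant ligand gene whose group mean was highest at stage 9 in all 4 lineages. It held 10.2, 13.7 and 6.34 TPM in neural, 5.52, 4.36 and 8.31 TPM in ventral mesoderm, 16.4, 10.0 and 8.99 TPM in endoderm and 3.0, 8.32 and 8.16 TPM in epidermal caps at stage 9. By stage 13 no library held more than 2.86 TPM, and the unsuffixed fgf14 row fell by 4.11 on the log2 scale in endoderm caps (SE 0.70) and by 3.50 in epidermal caps (SE 0.73) between stages 9 and 13. No fgf14 row was called in ventral mesoderm caps over that interval.

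The 4 receptors differed in course, but 3 of them shared a dip in endoderm caps. There the group mean was lowest at stage 10.5 for fgfr1 (42.5 TPM) and fgfr4 (15.2 TPM). For fgfr3 it was lowest at stage 11 (6.28 TPM). The fgfr1 dip was not particular to endoderm caps. Its lowest mean was 20.4 TPM in epidermal and 21.7 TPM in ventral mesoderm caps at stage 10.5, and 11.1 TPM in neural caps at stage 11. fgfr3 had its highest mean at stage 9 in all 4 lineages. The fgfr4 mean of neural caps was also lowest at stage 10.5, at 67.5 TPM. fgfr2 was higher at stage 13 than at stage 9 in all 4 lineages, and most so in endoderm caps, where its group mean was 8.38, 19.1, 62.8, 68.9, 229 and 426 TPM over the 6 stages. At stage 13 it held 329.6, 529.6 and 419.7 TPM in endoderm caps, against 75.1, 97.0 and 82.7 TPM in epidermal caps. The stage 13 against stage 9 log2 fold change of fgfr2.S was 10.12 ± 0.42 in endoderm, 7.85 ± 0.50 in ventral mesoderm, 5.90 ± 0.53 in neural and 5.81 ± 0.53 in epidermal caps. In ventral mesoderm caps the group mean of fgfr2 was highest at stage 11, at 72.7 TPM, and stood at 37.1 TPM at stage 13. The stage 11 mean includes replicate 4, whose TPM column was close to no count column. The fold change of fgfr2.L between stages 9 and 13 was 6.57 ± 0.27 in endoderm, 3.27 ± 0.42 in ventral mesoderm, 4.77 ± 0.31 in neural and 3.73 ± 0.30 in epidermal caps. In ventral mesoderm caps that row averaged 7.0 TPM at stage 9 and 20.2 TPM at stage 13, a smaller rise in TPM than in the fitted counts. At stage 10 fgfr2 was lower in endoderm caps, with 20.8, 21.1 and 15.6 TPM, against 42.4, 28.9 and 34.8 TPM in epidermal caps. The call there (-0.99 ± 0.21 for fgfr2.L, adjusted p = 0.0384) was lost without any 1 of the 3 endoderm libraries or epidermal replicate 1 or 3.

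fgfr4 dipped to a sharp minimum in endoderm caps and then rebounded. It averaged 121, 57.2, 15.2, 149.6, 317 and 322 TPM there over the 6 stages. At stage 10.5 it held 15.3, 15.1 and 15.2 TPM in endoderm caps, against 322, 112 and 151 TPM in epidermal caps. The highest of these was epidermal replicate 1, whose epidermal markers summed to 532 TPM, against 154 and 174 TPM in the other epidermal libraries. Without that library 1 of 18 calls in abundant genes was lost at this stage in endoderm against epidermal caps. The 3 endoderm libraries were nearly identical and far under the epidermal ones, and the log2 fold change was -3.88 ± 0.55 for fgfr4.L (adjusted p = 0.00722) and -3.87 ± 0.38 for fgfr4.S (adjusted p = 0.00105). Against ventral mesoderm caps at 211, 129 and 113 TPM the same stage gave -3.56 ± 0.27 and -3.36 ± 0.26. From stage 10.5 to 11 fgfr4.S gained 3.61 ± 0.42 in endoderm caps (adjusted p = 0.00915), a call lost without endoderm stage 10.5 replicate 2. fgfr4.L gained 3.50 ± 0.49 (adjusted p = 0.0127), but with the replicate number as a block the adjusted p was 0.0751.

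**Figure D2:**
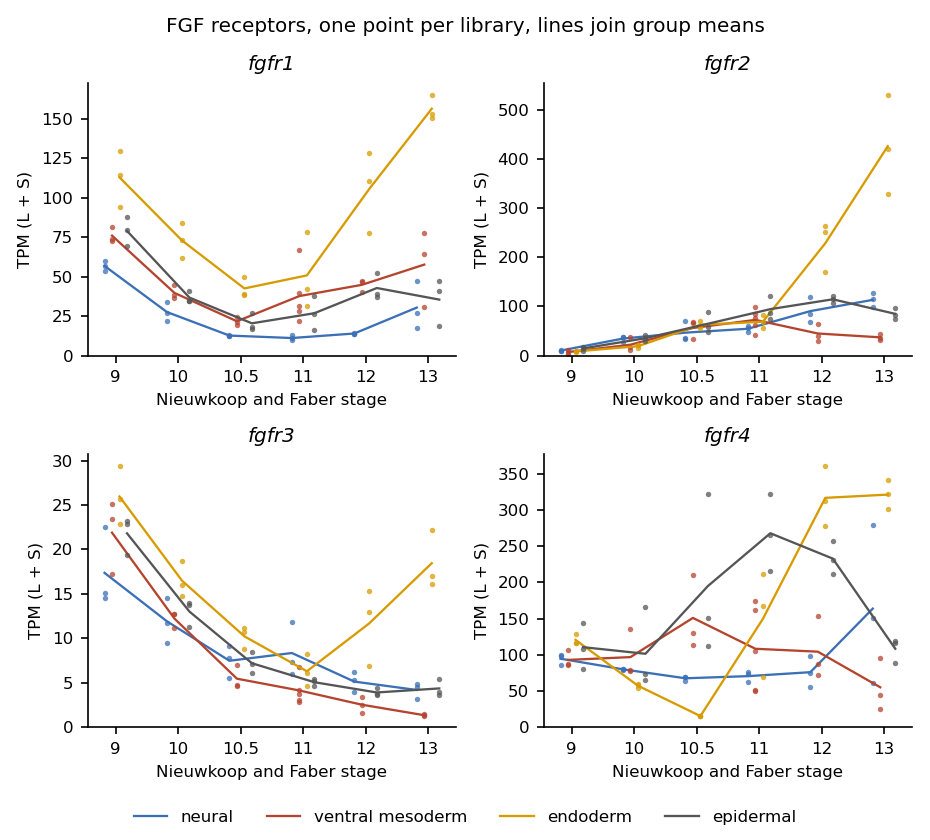
Level of the 4 FGF receptor genes by stage in TPM (L and S summed), 1 point per library, with lines through group means of neural, ventral mesoderm, endoderm and epidermal caps. Endoderm caps reach 329.6 to 529.6 TPM of fgfr2 at stage 13, and their fgfr4 sits at 15.1 to 15.3 TPM at stage 10.5.

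Neural caps kept fgfr4 low while it was high in epidermal caps. At stage 11 it held 73.0, 62.0 and 76.4 TPM in neural caps, against 322, 216 and 266 TPM in epidermal caps. The 322 TPM was from epidermal replicate 1, whose epidermal markers summed to 800 TPM, against 276 and 397 TPM in the other epidermal libraries. The lowest epidermal library was well above the highest neural one, and the log2 fold change was -2.31 ± 0.25 for fgfr4.L (adjusted p = 0.00129) and -1.77 ± 0.21 for fgfr4.S. At stage 12 it held 74.7, 55.1 and 98.0 TPM in neural caps, against 231, 211 and 257 TPM in epidermal caps. The groups overlapped at stage 13, when neural replicate 1 reached 280 TPM and replicate 2 held 61.3 TPM.

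fgfr1, a receptor needed for mesoderm in vertebrate embryos, split neural from endoderm caps. At stage 12 it held 13.7, 14.3 and 13.9 TPM in neural caps and 77.4, 129 and 111 TPM in endoderm caps, with epidermal caps between them at 36.8, 52.5 and 39.1 TPM. None of the 3 groups overlapped. They did not overlap at the stage 9 baseline either. There endoderm caps held 94.4, 129.6 and 114.6 TPM, neural caps 56.95, 60.05 and 53.3 TPM and epidermal caps 69.2, 87.85 and 79.8 TPM. No fgfr1 row was called at stage 9. In neural caps fgfr1.S was called lower at stage 11 (-1.67 ± 0.33, adjusted p = 0.0287), a call lost without any neural library or epidermal replicate 1 or 3. In endoderm caps fgfr1.L was called higher from stage 10 onward, first by 1.19 ± 0.19 (adjusted p = 0.0133), which did not hold without endoderm replicate 2 or 3 or epidermal replicate 3. fgfr1 reached 153, 165 and 151 TPM in endoderm caps at stage 13, against 18.6, 47.0 and 40.8 TPM in epidermal caps.

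fgfr3 was lower at stage 13 than at stage 9 in neural, ventral mesoderm and epidermal caps by the test, while no fgfr3 row was called over that interval in endoderm caps. At stage 9 it held 22.9, 29.3 and 25.7 TPM in endoderm caps, against 19.4, 23.2 and 22.9 TPM in epidermal caps. At stage 13 it held 17, 16.1 and 22.2 TPM in endoderm caps and 1.21, 1.45 and 1.35 TPM in ventral mesoderm caps. In endoderm caps it did not stay level between those stages, with a lowest group mean of 6.28 TPM at stage 11. Endoderm was apart from ventral mesoderm by 3.77 ± 0.43 for fgfr3.L and 3.33 ± 0.36 for the unsuffixed fgfr3 row. Within ventral mesoderm caps the unsuffixed row fell by 3.87 on the log2 scale between stages 9 and 13 (SE 0.35, adjusted p = 4.64e-05). There fgfr3.L fell by 2.87 (SE 0.51, adjusted p = 0.00155). The unsuffixed row has counts but no TPM, and fgfr3.S has TPM but no counts, so fgfr3 levels and fits cover different rows.

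The largest called fold changes between lineages among abundant feedback genes were those of the Sprouty genes, in fits where no group was wholly at 3 counts or fewer. spry2 held 179, 187 and 190.4 TPM in endoderm caps at stage 10.5, against 16.8, 30.9 and 28.8 TPM in epidermal caps, and it was still high at stage 11, with 165, 154 and 174 TPM, against 15.8, 24.5 and 22.7 TPM. No libraries overlapped, and at stage 11 spry2.S was higher in endoderm caps by 3.72 ± 0.27 on the log2 scale (adjusted p = 2.77e-05). In ventral mesoderm caps spry2 stood at 33.1, 73.9 and 91.0 TPM at stage 13, against 2.13, 6.03 and 4.72 TPM in epidermal caps, a log2 fold change of 4.78 ± 0.64 for spry2.S (adjusted p = 0.0223) and 4.14 ± 0.52 for spry2.L (adjusted p = 0.0176). In neural caps at stage 12 it held 25.7, 92.4 and 40.3 TPM, against 2.74, 7.17 and 8.99 TPM in epidermal caps. Within epidermal caps spry2.S fell by 3.73 on the log2 scale between stages 9 and 13 (SE 0.60, adjusted p = 0.00103). Epidermal replicate 1, which held 2252 TPM of summed epidermal markers at stage 12 where the other epidermal libraries held 965 and 1170 TPM, was the lowest of its group for fgf8, spry1, spry2 and dusp6 at stages 12 and 13. Without it at stage 12, 5 of 16 calls in abundant genes were lost in neural, 1 of 7 in ventral mesoderm and 3 of 17 in endoderm caps.

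spry4 was near silent in epidermal caps, at 0.38 to 1.42 TPM from stage 10.5 on, and was higher in endoderm and ventral mesoderm caps. In endoderm caps it held 7.08, 6.37 and 5.83 TPM at stage 10.5, 29.8, 37.5 and 25.7 TPM at stage 11 and 3.76, 1.59 and 2.31 TPM at stage 13. In ventral mesoderm caps it held 1.26, 10.6, 2.1, 11.7 and 11.0 TPM in the 5 libraries of stage 11, all above the epidermal libraries of that stage. The 11.7 TPM is from replicate 4, whose TPM column was close to no count column. Ventral mesoderm caps held 3.73, 14.3 and 17.3 TPM of spry4 at stage 12 and 9.70, 36.0 and 46.0 TPM at stage 13. The group mean was highest at stage 11 in endoderm caps and at stage 13, the last stage sampled, in ventral mesoderm caps. Against epidermal caps spry4.L was higher by 6.32 ± 0.32 (adjusted p = 4.02e-06) in endoderm caps at stage 11 and by 5.75 ± 0.80 (adjusted p = 0.0287) in ventral mesoderm caps at stage 13. At stage 13 the log2 fold change of spry4.L in endoderm over ventral mesoderm caps was -4.29 ± 0.73 (adjusted p = 0.00681).

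spry1 held 77.6, 96.2 and 76.6 TPM in endoderm caps at stage 10.5, against 4.92, 14.1 and 16.6 TPM in epidermal caps. It held 20.9, 38.1 and 54.6 TPM in ventral mesoderm caps at stage 12, against 1.22, 6.88 and 5.32 TPM in epidermal caps. Neither pair overlapped, and at stage 12 spry1.S was higher by 3.61 ± 0.56 in ventral mesoderm (adjusted p = 0.0344), by 3.41 ± 0.51 in endoderm (adjusted p = 0.00146) and by 2.57 ± 0.51 in neural caps (adjusted p = 0.0107).

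**Figure D3:**
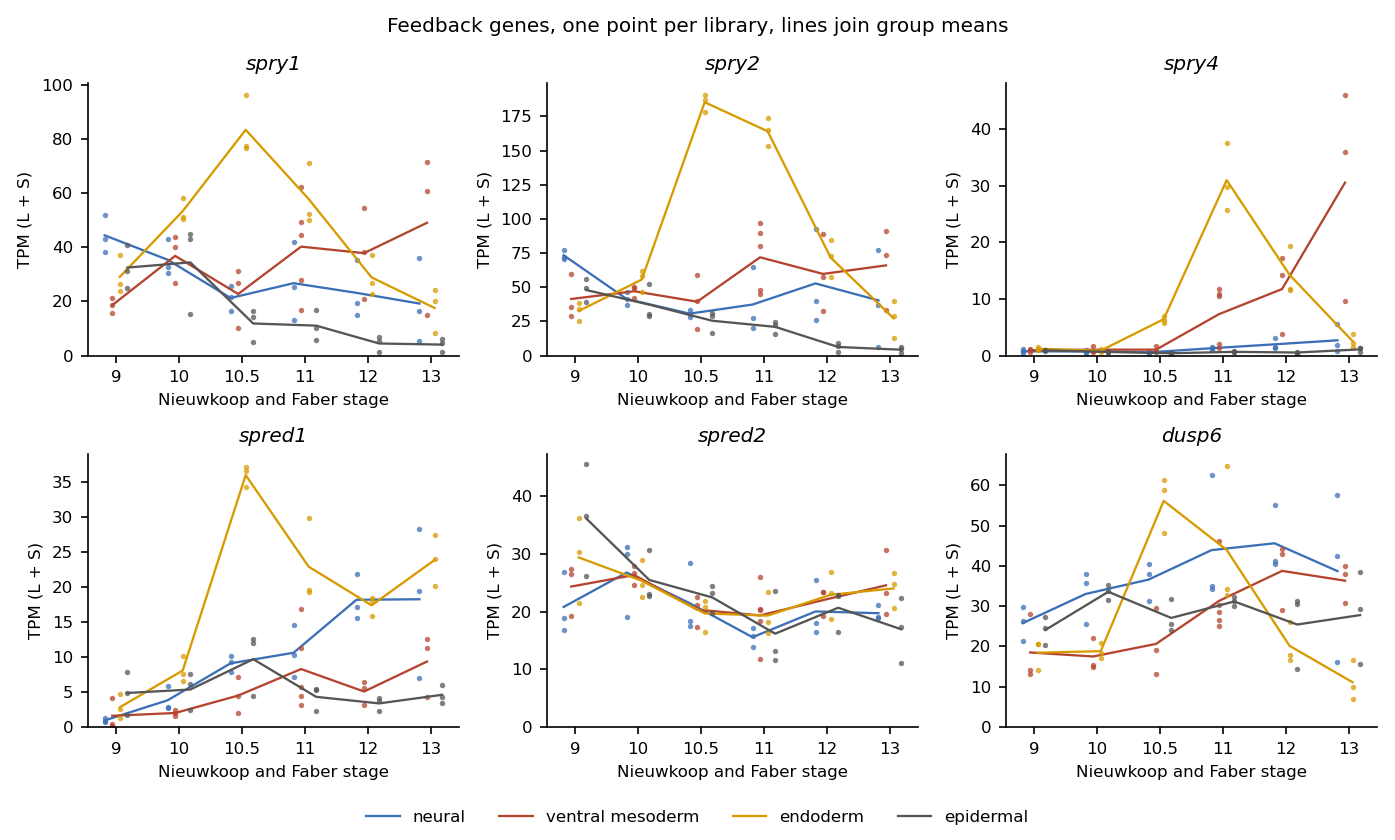
Level of 6 feedback genes by stage in TPM (L and S summed), 1 point per library, with lines through group means of neural, ventral mesoderm, endoderm and epidermal caps. spry2 peaks at 179 to 190.4 TPM in endoderm caps at stage 10.5, spry4 has group means of 31.0 TPM in endoderm caps at stage 11 and 30.6 TPM in ventral mesoderm caps at stage 13, and spred2 stays between 11.2 and 45.6 TPM in all groups.

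The Spred genes and dusp6 behaved less uniformly. spred1 held 36.6, 34.3 and 37.2 TPM in endoderm caps at stage 10.5, against 4.42, 12.6 and 12.1 TPM in epidermal caps, and 17.2, 21.8 and 15.6 TPM in neural caps at stage 12, against 2.26, 4.20 and 3.69 TPM in epidermal caps. spred1 has 3 rows (unsuffixed, L and S) that may share reads, so the split between them is uncertain. spred2 lay between 11.2 and 45.6 TPM in every library and had no call against epidermal caps in endoderm or ventral mesoderm caps. spred3 was at 0.43, 0.50 and 0.72 TPM in endoderm caps at stage 13, against 5.66, 14.2 and 14.1 TPM there at stage 9, a log2 fold change of -4.15 ± 0.49 for spred3.S (adjusted p = 1.49e-04).

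dusp6 was expressed in all 4 lineages throughout. It held 48.3, 58.9 and 61.2 TPM in endoderm caps at stage 10.5, against 25.5, 31.7 and 24 TPM in epidermal caps, all endoderm libraries being the higher. Within endoderm caps dusp6.S gained 2.10 ± 0.14 on the log2 scale from stage 10 to 10.5 (adjusted p = 2.16e-04). At stage 13 the order was turned round, with 16.6, 6.88 and 9.86 TPM in endoderm caps, 30.9, 38.1 and 40.0 TPM in ventral mesoderm caps and 15.7, 38.4 and 29.2 TPM in epidermal caps. The endoderm range was apart from that of ventral mesoderm and touched that of epidermal caps through epidermal replicate 1.

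The count of member rows called against epidermal caps, read against all rows tested, was as follows for endoderm. At stage 10, 6 member rows were higher and 1 lower of 47, where 4.78% of all rows were called. At stage 10.5, 19 were higher and 2 lower of 48 (8.16% of all rows). At stage 11 it was 18 and 1 of 49 (10.8% of all rows), at stage 12 23 and 0 of 49 (22.8% of all rows) and at stage 13 22 and 1 of 47 (33.9% of all rows). Feedback rows gave 10 of the higher calls at stage 10.5 and 10 at stage 12, ligand rows 8 at each of stages 10.5 to 13, and all 8 receptor rows were higher at stage 13, when the 1 lower row was a dusp6 copy. Over stages 10 to 13 together 31 member rows were called at least once, where 41.9% of all rows were. The median log2 fold change of member rows at stage 10.5 was 1.69, against 0.02 over all rows.

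**Figure D4:**
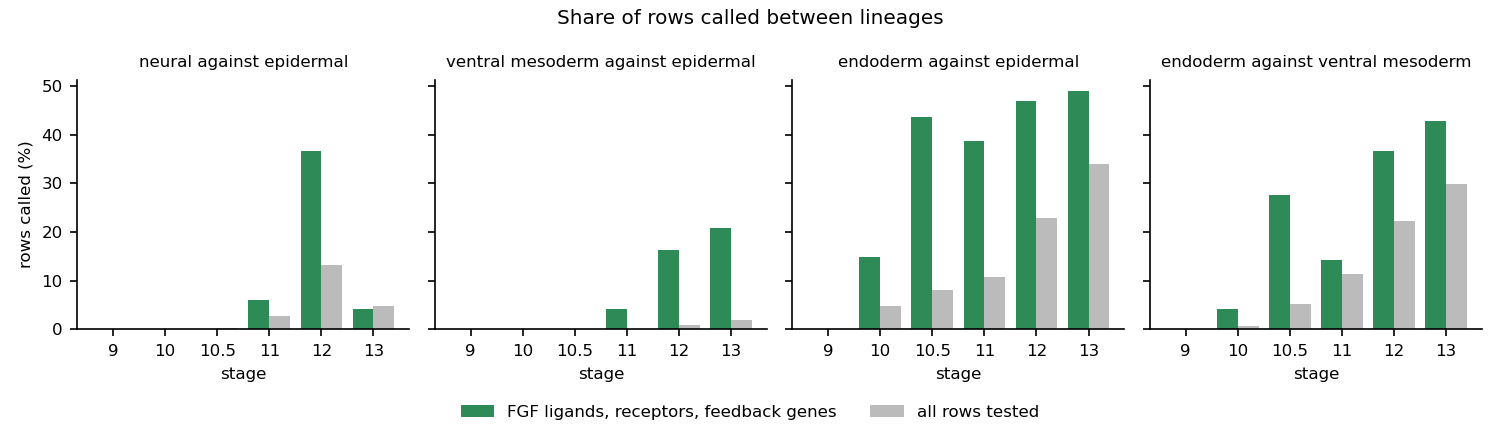
Percent of member rows and percent of all rows called (adjusted p at most 0.05, edgeR) at each of 6 stages, in 4 lineage comparisons, as paired bars. In endoderm against epidermal caps the member bar exceeds the bar of all rows most clearly at stages 10.5 and 11; at stage 9 no member row was called in any comparison.

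Ventral mesoderm against epidermal caps gave no member call at stage 10 (0.0% of all rows) or 10.5 (0.00738% of all rows), where 7 and 9 member rows had an unadjusted p under 0.05. DESeq2 called 2 member rows at stage 10 (1.27% of all rows) and 3 at stage 10.5 (1.05% of all rows). It gave 2 higher of 48 at stage 11 (0.11% of all rows), 8 higher of 49 at stage 12 (0.858% of all rows) and 9 higher and 1 lower of 48 at stage 13 (1.89% of all rows). All but 1 of these calls were in ligand and feedback rows. Over the 5 stages 10 member rows were called, where 2.34% of all rows were. Leaving out ventral mesoderm replicate 1, the library lowest in ventral mesoderm markers, at every stage gave 18, where 6.1% of all rows were called. Single libraries decided many of these calls: at stage 11 both spry2 calls went without ventral mesoderm replicate 2, 3 or 4 or without any epidermal library, and at stage 13 all 9 calls in abundant genes went without ventral mesoderm replicate 2 or 3 or epidermal replicate 2 or 3, while none went without ventral mesoderm replicate 1. At stage 12 all 7 such calls went without ventral mesoderm replicate 2 or epidermal replicate 3. With DESeq2 20 member rows were called over the 5 stages, where 12.5% of all rows were.

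Neural against epidermal caps gave no member call at stage 10 (0.037% of all rows; unadjusted p under 0.05 for 2 rows) or 10.5 (0.235% of all rows; 10 rows). DESeq2 called 1 member row at stage 10 (1.02% of all rows) and 3 at stage 10.5 (3.08% of all rows). At stage 11 3 rows were lower of 49 (2.69% of all rows), all receptors. Stage 12 gave 12 higher and 6 lower of 49 (13.2% of all rows), the higher ones in 4 ligand and 8 feedback rows and the lower ones in 5 receptor rows and 1 feedback row. At stage 13 2 rows were higher (4.87% of all rows), and with the replicate number as a block 5 were, where that block called 6.67% of all rows. Of those 2, spry2.S (3.94 ± 0.90, adjusted p = 0.0420), lost its call without any 1 epidermal library or neural replicate 2 or 3. The largest fold changes at stage 12 outside fgf20 were 3.29 ± 0.56 for spry2.S (adjusted p = 0.00537), 2.9 ± 0.62 for spry2.L (adjusted p = 0.0161) and 2.76 ± 0.54 for spry4.L (adjusted p = 0.00951). The unsuffixed spred1 row gave 2.64 ± 0.72 (adjusted p = 0.0358, and 0.0554 with the replicate block).

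Neural replicate 2 stood apart in these values. At stage 12 it held the most fgf8, fgf20, spry1, spry2 and spry4 of the neural libraries, and its muscle markers (myod1, myf5 and actc1) summed to 251 TPM, where the other neural libraries held 23.7 and 32.9 TPM and epidermal caps 1.92 to 6.62 TPM. In that comparison 3 of 4 muscle marker rows were called higher. Without that library at stage 12 8 of 16 calls in abundant genes were lost, and leaving it out at every stage gave 10 member rows called over stages 10 to 13 (8.13% of all rows), against 18 with it (15.5% of all rows). The part of muscle marker RNA in the neural result was not tested. At stage 13 neural replicate 1 stood apart. It held 6.61 TPM of spry2, against 77.2 and 37.3 TPM in the other neural libraries, and 16.1 TPM of dusp6, against 57.5 and 42.5 TPM. Its neural markers summed to 2639 TPM, against 1007 and 1517 TPM. Leaving out 1 library at a time gave 10 to 23 member rows called over stages 10 to 13.

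Organizer markers rose in endoderm caps at stages 10 and 10.5, as the ligands did, but their sum did not fall with them by stage 12. The markers parted within that sum. gsc averaged 978, 826 and 210 TPM in endoderm caps at stages 10.5, 11 and 12, a fall after stage 10.5. chrd rose on, with 373, 1370 and 2223 TPM there. gsc, chrd and nog summed to 215 to 295 TPM in endoderm caps at stage 10 and 1155 to 1465 TPM at stage 10.5, against at most 14.9 TPM in epidermal caps at either stage, and 5 of 7 of their rows were called higher at stage 10.5. The ventral mesoderm markers gave 3 higher rows and 1 lower of 9 there, tbxt among the higher ones. In endoderm caps the organizer sum was 2090 to 2305 TPM at stage 11 and 2192 to 2726 TPM at stage 12. fgf8 held 41.2 to 58.8 TPM and 20.2 to 32.6 TPM there at those stages. The part of these markers in the fgf8, fgf3 and fgf20 result was not tested.

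Endoderm set directly against ventral mesoderm caps gave 2 higher of 47 at stage 10 (0.703% of all rows), 11 higher and 2 lower of 47 at stage 10.5 (5.24% of all rows), 7 higher of 49 at stage 11 (11.3% of all rows), 14 higher and 4 lower of 49 at stage 12 (22.3% of all rows) and 12 higher and 9 lower of 49 at stage 13 (29.8% of all rows). The direction differed by class at stage 13, with 6 receptor rows higher and 0 lower in endoderm caps, and 6 feedback rows lower and 3 higher. The log2 fold change of endoderm over ventral mesoderm caps was 3.68 ± 0.26 for fgfr2.L (adjusted p = 4.85e-05) and -3.67 ± 0.43 for fgf3.S (adjusted p = 4.99e-04). fgf3 held 0.83, 1.1 and 0.93 TPM in endoderm caps at that stage, against 6.30, 16.9 and 13.6 TPM in ventral mesoderm caps. Over stages 10 to 13 together 30 member rows were called at least once, where 37.5% of all rows were. At stage 13 8 of 17 calls in abundant genes were lost without endoderm replicate 2. At stage 10.5 fgf3.S (3.95 ± 0.71, adjusted p = 0.0253) and fgf20.S (3.94 ± 0.76, adjusted p = 0.0263) were higher in endoderm caps, and both calls were lost without any 1 endoderm library or ventral mesoderm replicate 3, that of fgf20.S also without ventral mesoderm replicate 2.

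**Figure D5:**
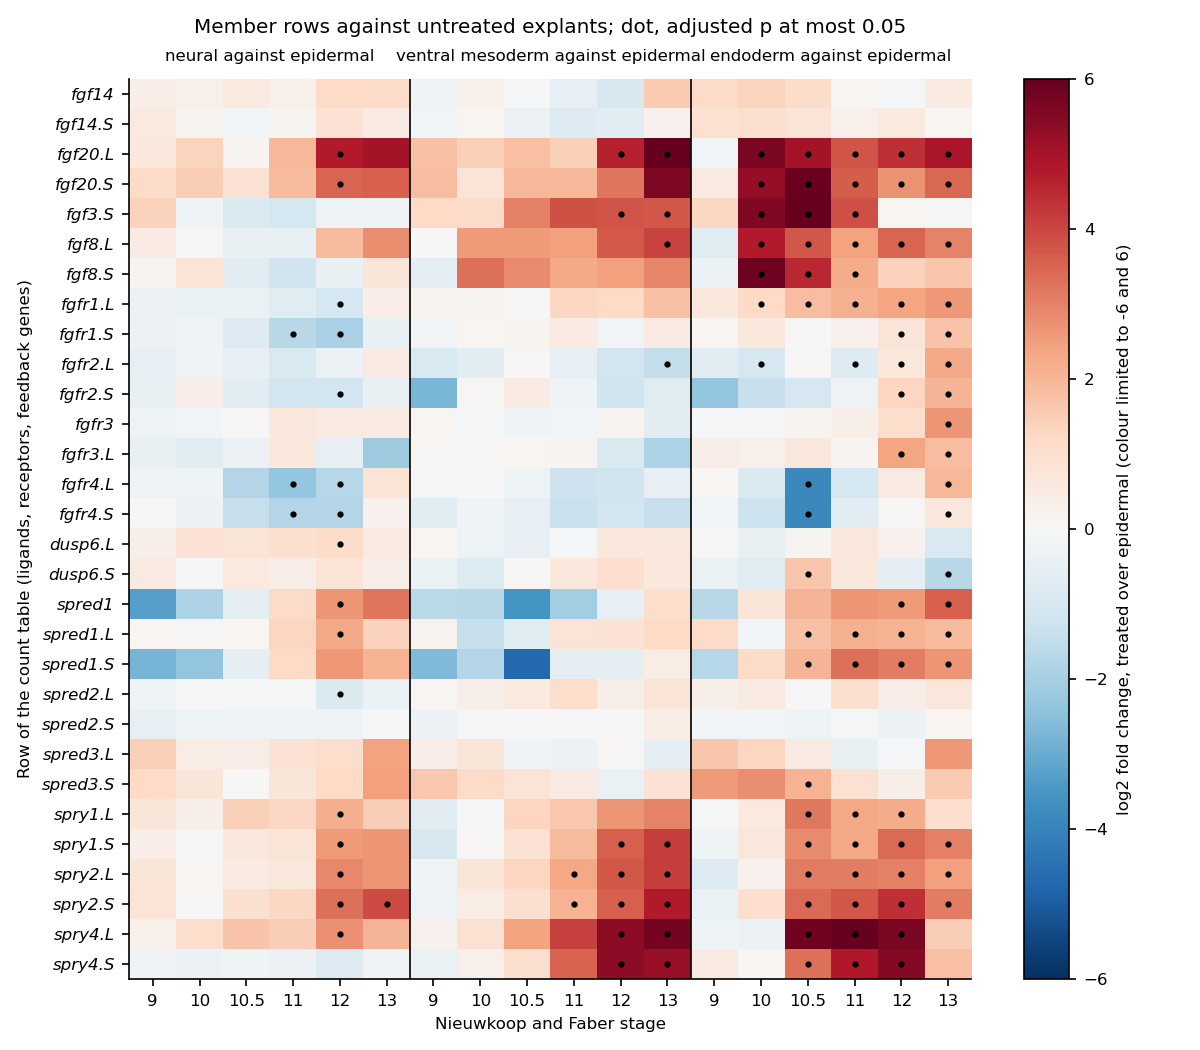
Log2 fold change against epidermal caps of each member row of the 15 abundant genes, for neural, ventral mesoderm and endoderm caps at 6 stages; colour is limited to 6 either way and a dot marks an adjusted p of at most 0.05. The endoderm columns hold 18, 15, 17 and 18 dots at stages 10.5 to 13, and in the neural columns the receptor rows marked at stages 11 and 12 are lower.

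Stage 9 gave no member call in any of the 4 lineage comparisons (0.0182% of all rows in at least 1 of them), with 7, 3, 6 and 4 member rows at an unadjusted p under 0.05 for neural, ventral mesoderm and endoderm against epidermal and endoderm against ventral mesoderm. DESeq2 called 5 member rows in at least 1 of the 4 comparisons, where it called 10.9% of all rows.

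Across time, 28 member rows changed in at least 1 step between neighbouring stages in endoderm caps (25.4% of all rows). The steps in the other lineages gave 3 rows in epidermal (2.07% of all rows), 7 in neural (4.16% of all rows) and 1 in ventral mesoderm caps (5.36% of all rows). Same-numbered libraries of neighbouring stages deviated together, and with the replicate number as a block those counts became 25 in epidermal (63.8% of all rows), 24 in neural (46.4% of all rows), 31 in ventral mesoderm (56.7% of all rows) and 39 in endoderm caps (68.0% of all rows). With the block, member rows were also called in later steps of both epidermal and neural caps. Without the block, all 3 epidermal calls (fgfr2.L, fgfr1.S and fgfr1.L) and all 7 neural calls fell in the step to stage 10. In endoderm caps 12 member rows were called in that step (6.75% of all rows), 5 ligand rows and 4 feedback rows higher and 2 receptor rows higher and 1 lower, with fgf3.S up by 7.39 ± 0.69. In the step from stage 10 to 10.5 19 member rows were called there (12.2% of all rows), of which 8 feedback rows were higher and 1 lower, with spry4.L up by 5.92 ± 0.46 (adjusted p = 3.63e-04) and spred1.L by 3.17 ± 0.23 (adjusted p = 2.95e-04).

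From stage 9 to stage 13 as a whole, 20 member rows rose and 9 fell in endoderm (62.0% of all rows called), 20 and 8 in ventral mesoderm (55.7%), 11 and 5 in neural (40.5%) and 7 and 11 in epidermal caps (55.8%). Of 48 or 49 member rows tested, that is near the background of all genes in endoderm and ventral mesoderm caps and under it in neural and epidermal caps. Rises and falls here are those of TMM-scaled counts, and the deposited TPM of some rows differed from them. dusp6.S in epidermal caps was called higher by 1.06, with means of 17.2 TPM at stage 13 and 16.2 TPM at stage 9. spry2.S in ventral mesoderm caps was called higher by 1.43, with means of 19.7 and 16.8 TPM. The neural count was 10, 9 and 8 without stage 9 replicate 1, 2 and 3. Of 17 feedback rows 5 rose and 2 fell in endoderm, 10 rose and 2 fell in ventral mesoderm, 5 rose and 1 fell in neural, and 3 rose and 4 fell in epidermal caps; the difference between lineages was not tested. The largest fold change in ventral mesoderm outside genes at or under 3 counts was that of spry4.L, 7.90 ± 0.76 (adjusted p = 9.90e-05).

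Some scarcer ligands were near 0 in epidermal caps and present in treated caps, and they are named here after their values were seen. fgf10.L, a ligand known for its part in outgrowth of endodermal organs, had 64, 129 and 60 counts in endoderm caps at stage 13, 0, 5 and 4 counts in ventral mesoderm caps and 0 in all 3 epidermal libraries, where a count of 0 allows up to 3. fgf16.S, of the Fgf9 group, had 168, 178 and 132 counts in endoderm caps at stage 11, against 0, 1 and 0 counts in epidermal caps. In ventral mesoderm caps fgf16.S stayed at 4 counts or fewer, while the other fgf16 row had 86, 227 and 460 counts there at stage 13, against 1, 3 and 2 counts in epidermal caps. That row was also present in endoderm caps, with 73, 122 and 77 counts at stage 11, and in neural caps, with 61, 167 and 48 counts at stage 13. fgf4, whose product maintains tbxt in the frog, reached 2.95, 7.09 and 4.64 TPM in endoderm caps at stage 10.5 and 1.84, 8.56 and 6.09 TPM in ventral mesoderm caps at stage 13, against at most 0.59 TPM in epidermal caps at either stage. fgf12.S, an intracellular FGF-like gene, had 64, 48 and 49 counts in endoderm caps at stage 12, against 0, 1 and 0 counts in epidermal caps.

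Other genes of the pathway were taken from 3 lists: FGF targets outside the members, the Ras-ERK cascade, and genes that govern ligand access. Of the FGF target rows 15 were higher and 0 lower of 26 in ventral mesoderm caps at stage 13 (1.89% of all rows called), 14 and 0 of 26 in endoderm caps at stage 12 (22.8%), and 6 and 0 of 26 in neural caps at stage 12 (13.2%), all against epidermal caps. Of the genes in that list tbxt and msgn1 are also ventral mesoderm markers. With cdx1, cdx2, cdx4 and tbx6 they were listed as genes that need FGF signalling in frog mesoderm. Only 1 stage per lineage is given here. The target flrt3, which binds FGF receptors, held 810.4, 766 and 581 TPM in endoderm caps at stage 10.5, against 1.52, 1.44 and 0.94 TPM in epidermal caps. il17rd, an antagonist of FGF signalling, went the other way, with 47.4, 54.5 and 51.3 TPM in endoderm caps at stage 10.5, against 149, 141 and 131 TPM in epidermal caps. Between the mesendodermal lineages 1 target row was higher and 10 lower of 26 in endoderm than in ventral mesoderm caps at stage 13 (29.8% of all rows called). Of the cascade rows 3 were higher and 7 lower of 28 in endoderm against epidermal caps at stage 13, and of the ligand access rows 8 were higher and 2 lower of 18, where 33.9% of all rows were called. They included fgfrl1, a receptor-like protein without a kinase domain, at 6.36, 10.4 and 10.5 TPM in endoderm caps, against 1.07, 0.54 and 0.55 TPM in epidermal caps, and klb, the co-receptor for endocrine FGFs, at 13.4, 50.8 and 31.9 TPM in endoderm caps, against 0.27, 0.32 and 0.43 TPM in epidermal caps.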

How the data were processed

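RNA was taken from animal caps in Trizol and sequenced from TruSeq mRNA libraries. The authors deposited 2 tables, raw counts per gene row and TPM per gene row. Per the submitters' notes and the study's methods the authors aligned reads with STAR 2.6.0 to the *X. laevis* 9.2 genome, and TPM came from RSEM. The strand setting of the counting is not given in the sources used here. Homeologs share sequence, so reads can be split between L and S rows. Columns were matched to samples by name, and 0 columns of no sample were found. At stage 11, 4 ventral mesoderm TPM columns were most alike to count columns of another replicate number, so values there were not matched library by library. The replicate 4 TPM column was close to no count column. Its highest correlation was 0.46, where every other TPM column reached 0.87 or more. It held 0 TPM of fgf14, fgf16 and fgf20. Its values are part of the stage 11 levels and group means of ventral mesoderm caps. 56 member row names were found in a RefSeq gene table, used for names only.

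Members and gene lists were chosen with earlier results of these data known. Each comparison was fitted on the deposited counts of its 2 groups with edgeR 4.0.16 (R 4.3.3), robust quasi-likelihood F test, TMM scaling and rows of at least 15 counts in at least 1 library. p-values were Benjamini-Hochberg adjusted over all rows of that fit and called at 0.05 or less, and only member rows are printed. Fold changes are log2, and their standard error was obtained by dividing the absolute fold change by the root of its F value. Levels are the deposited TPM, L and S summed, with 10 TPM as the minimum for an abundant gene. Named genes were those that reached 10 TPM in a group mean and had a call, and fold changes were given for up to 6 rows a comparison, those with the largest change. No fold is given where a whole group was at 3 counts or fewer. Scripts were tested on simulated data.

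Replicate numbers are shared between groups in the labels. Deviations of same-numbered libraries from their group means correlated over 0.1 for all 3 pairs in every step between stages in epidermal, neural and endoderm caps and in 4 of 5 steps in ventral mesoderm caps, and in 2 of 6 neural, 0 of 6 endoderm and 0 of 6 ventral mesoderm comparisons with epidermal caps. Alternatives were DESeq2 1.42.0, a replicate block, DESeq2-type size factors, no filter, L and S summed, a single fit of all libraries, other TPM minimums and leaving out each library. Added after seeing the data were leaving out ventral mesoderm replicate 1 or neural replicate 2 at every stage and using replicates 1 to 3 at ventral mesoderm stage 11. Figures were drawn with matplotlib 3.10.9.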

Additional observations from a re-analysis of the deposited data

Results flagged for a closer look

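dusp6 at stage 11 in ventral mesoderm caps had 1 library apart from the other 4: replicate 2 held 46.1 TPM, and its gap to the next library was 0.759 of the group's whole range. Chance gives such a gap in about 1 group in 20, and many genes and groups were looked over. That replicate 2 TPM column was most alike to the count column of replicate 4 (correlation 0.92), so which library it was is uncertain.

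fgfr2.L at stage 13 moved apart, higher than epidermal caps in endoderm and lower in ventral mesoderm caps, and the fit of endoderm against ventral mesoderm caps tested that difference, at 3.676 on the log2 scale (adjusted p = 4.85e-05).

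Other genes had every library of 1 lineage above and every library of another below all epidermal libraries of that stage; these differences between lineages were not tested. fgfr1 was above in endoderm and below in neural caps, with an endoderm to neural ratio of mean TPM of 1.988 at stage 9, 2.646 at stage 10, 3.356 at stage 10.5 and 7.549 at stage 12. spry2 was above in neural and below in endoderm caps at stage 9, with a neural to endoderm ratio of 2.247. At stage 11 fgf3 was below in neural caps, with an endoderm to neural ratio of 31.487 and a ventral mesoderm to neural ratio of 37.349. The ventral mesoderm mean includes replicate 4, whose TPM column was close to no count column. fgfr4 at stage 12 had an endoderm to neural ratio of 4.176, and fgfr2 at stage 13 a neural to ventral mesoderm ratio of 3.055.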

How the results depend on the processing

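No direction among 141 named fold changes turned round in 1713 values under alternatives. Those were the largest called changes and the alternatives reuse the same libraries, so a turn was unlikely from the start. Calls were lost in 216 of 860 values with 1 library left out and in 11 of 141 with the replicate block. The single fit and joining L and S each lost 10 of 141, and DESeq2 lost 0. The share of all rows called moved with the setting too. For ventral mesoderm against epidermal caps it was 2.34% as reported, 12.5% with DESeq2 and 6.1% without ventral mesoderm replicate 1. Shares for most other settings are not given here, so the counts below are no result about the members. Counts of member rows called moved as follows. Joining L and S rows, which leaves fewer rows to call, gave 11 for neural (18 as reported), 7 for ventral mesoderm (10) and 18 for endoderm (31) against epidermal caps and 17 for endoderm against ventral mesoderm (30), and from stage 9 to 13 10 in neural (16), 18 in ventral mesoderm (28) and 18 in endoderm caps (29); for neighbouring stages it gave 4 in neural (7) and 19 in endoderm caps (28). For ventral mesoderm against epidermal caps DESeq2 gave 20, no filter 16, a single fit of all libraries 17 and leaving out ventral mesoderm replicate 1 gave 18. Leaving out neural replicate 2 gave 10 for neural against epidermal caps. For neighbouring stages DESeq2 gave 11 in epidermal (3) and 14 in ventral mesoderm caps (1), the single fit 5 in epidermal and 12 in ventral mesoderm caps, and no filter 2 in ventral mesoderm caps. At stage 9 DESeq2 gave 5 and the single fit 2 (0). The replicate block gave 25 in epidermal, 24 in neural and 31 in ventral mesoderm caps for neighbouring stages, and 15 for ventral mesoderm against epidermal caps. The cause of these shifts was not tested. Leaving out 1 library at a time gave 10 to 23 for neural, 8 to 17 for ventral mesoderm and 29 to 33 for endoderm against epidermal caps, 27 to 31 for endoderm against ventral mesoderm caps, 15 to 18, 8 to 23, 22 to 33 and 27 to 28 from stage 9 to 13 in epidermal, neural, ventral mesoderm and endoderm caps, 0 to 4, 0 to 7, 0 to 2 and 23 to 28 for their neighbouring stages, 0 to 0 at stage 9 and 14 to 15 abundant genes. At 5 TPM 20 genes were abundant and at 20 TPM 13.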

Other observations

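A scarce ligand outside the named genes fell in all 4 lineages, and it is described here after its values were seen. fgf7, known as a growth factor for epithelia, was at 0.36, 0.84 and 0.76 TPM in neural caps at stage 13, against 3.91, 3.80 and 5.77 TPM there at stage 9, and at 0.03, 2.05 and 0 TPM in ventral mesoderm caps at stage 13, against 4.84, 1.66 and 13.7 TPM there at stage 9. It was at 0.68, 0.71 and 0 TPM in endoderm caps at stage 13, against 5.49, 7.30 and 8.37 TPM there at stage 9, and at 0.04, 0 and 0 TPM in epidermal caps at stage 13, against 1.39, 4.27 and 8.15 TPM there at stage 9. At least 1 fgf7 row was called lower at stage 13 in each lineage, with an overlap of the 2 stages in ventral mesoderm caps only. In neural caps that was fgf7.S alone (adjusted p = 0.0322), and the call held in 1 of 6 fits with 1 library left out. The single fit of all libraries gave it an adjusted p of 0.12.

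Among the other genes of the pathway, egr1, an immediate early target of ERK, was at 136, 90.5 and 110.1 TPM in endoderm caps at stage 10.5, against 1.19, 3.44 and 2.71 TPM in epidermal caps. It was back at 4.54, 1.03 and 0.24 TPM in endoderm caps at stage 12. etv1, an ETS factor downstream of FGF, was at 35.0, 140.3 and 115 TPM in ventral mesoderm caps at stage 13, against 6.37, 11.6 and 14.7 TPM in epidermal caps. hs6st1, which sulfates the heparan chains that FGFs bind, was at 145, 176 and 95.9 TPM in endoderm caps at stage 11, against 8.96, 7.58 and 8.23 TPM in epidermal caps. No library of these pairs overlapped.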
